A study of Mus musculus with 5 samples.

Results

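RNA Polymerase II occupancy was examined at the genes of the PARP family, the enzymes at which the inhibitor PJ34 is aimed, in Th2 cells with and without PARP-14. PARP enzymes transfer ADP-ribose from NAD to proteins. PARP-1 and PARP-2 build long chains when they meet broken DNA, whereas most other members add single units, and several of those are induced by interferon. PARP-14 is known in Th2 cells as a cofactor of STAT6, the factor activated by IL-4. Members were chosen by name, and a line of the gene table was accepted only where its coordinates overlapped the gene. Of 10 members looked for, 7 had such a line, out of 11608 lines in the table: *Parp14*, *Parp1*, *Parp3*, *Parp8*, *Parp9*, *Dtx3l* and *Tiparp*. *Dtx3l* encodes a ubiquitin ligase that binds PARP-9 and was kept with the family. The line labelled *Parp2* lay on chromosome 4, from 132567421 to 132634025, while the gene is on chromosome 14, from 51427621 to 51440975, where the line carries the label *Rnf103*. *Parp10* had no line of its name, and the line at its place on chromosome 15 is labelled LOC671535, an older name with the gene ID of *Parp10*. It fell outside the rule by name, and counts that include it are given beside those of the 7. For *Parp12*, on chromosome 6 from 39036409 to 39068348, no line matched.

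Both genotypes, *Parp14*+/+ and *Parp14*−/−, were of the C57BL/6 strain. Naive CD4 T cells of the spleen spent 3 days in activation, with IL-4 at 10 ng/ml and an antibody to IFN-γ, and 4 days in expansion, with IL-2 at 50 U/ml and IL-4. They were left untreated or given PJ34, at 10 µM by the labels, while the methods of the study give a lower dose. The labels place PJ34 after differentiation and the methods describe culture with it. Chromatin was precipitated with an antibody to the form of RNA Polymerase II phosphorylated on serine 2, and there was 1 library for each of 4 conditions, so no difference has a replicate check and no test between conditions was run.

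The peak height of a gene is the mean, over its active regions, of the largest number of fragments that overlap at 1 position. Active regions are merged SICER intervals, so neighbouring genes can share a region. They had been merged over these 4 libraries and others of the same table that were not analysed here, and 7182 of 19742 regions held no interval of the 4. An average height can therefore include such regions, among them 4 of 5 at *Parp1*, 1 of 3 at *Parp14* and 1 of 2 at *Parp3*. The libraries had been reduced to the same number of alignments. Ratios carry 95% Clopper-Pearson intervals made from summed heights taken as counts, which cover counting error only. A height is a largest overlap and not a plain count, so these intervals are approximate. A gene was called where a ratio was above 1.4 or below 0.7 and the higher library had an interval, and the comparison set was the 8551 genes with an interval in at least 1 of the 4 libraries. Occupancy per cell and the number of cells in which a gene is occupied cannot be told apart in these cultures.

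The T cell markers *Cd3e*, *Cd3g*, *Cd4*, *Cd28* and *Lck* all had a line with an interval in at least 1 library, and *Cd3e* and *Cd28* in all 4. The line of *Cd3g* had an interval in *Parp14*+/+ alone, that of *Cd4* had none in *Parp14*−/−, and that of *Lck* none in *Parp14*−/− + PJ34. Of the Th2 markers, *Gata3* had heights of 60, 58, 45 and 43 in *Parp14*+/+, *Parp14*+/+ + PJ34, *Parp14*−/− and *Parp14*−/− + PJ34, an order used for all values that follow. The heights of the 5 T cell markers summed to 52.5, 62.5, 53.5 and 44.5, the highest being *Cd28* in each library, and 2 of the 5 were called higher in *Parp14*+/+ than in *Parp14*−/− with PJ34 present, against 19.8% of genes. In *Parp14*−/− over *Parp14*−/− + PJ34 *Lck* was called higher, at 1.58, and *Cd4* lower, at 0.571. *Il5*, the eosinophil growth factor, had heights of 21, 21, 4 and 6. *Il13* had heights of 38, 33, 17 and 10, and *Il4* of 61, 39, 29 and 18, so these lines were lower in the libraries without PARP-14. No summit lay inside *Il4*, *Il13* or *Il5* in any library, so these heights come from regions that reach past the genes. Intervals covered all of *Il4* and *Il13* in each library, and 4310, 2855, 0 and 0 bp of *Il5*. Their part in the values of the PARP genes was not tested. The Th1 regulator *Tbx21* had heights of 28, 22, 26 and 19, and *Ifng* of 22, 20, 16 and 14, which was called higher in the genotype pair with PJ34 at 1.43. A summit lay inside *Ifng* in *Parp14*−/− alone, and the same held for *Gata3*. The B cell marker *Ms4a1* and the CD8 marker *Cd8a* had no interval in any of the 4 libraries. *Cd79a*, another B cell marker, had heights of 38, 36, 34 and 28 from an active region that reaches past the gene, and intervals covered 0, 21, 0 and 0 bp of the gene itself. Lines for 2 of 3 myeloid markers were found, with heights that summed to 9, 12.5, 6 and 7.5. The higher of them was *Csf1r*, with heights of 8, 8.5, 6 and 5.5, intervals over 3000, 4993, 0 and 193 bp of the gene and a call as higher in the genotype pair with PJ34, at 1.55, and *Itgam* had heights of 1, 4, 0 and 2. The part of these markers in the results was not tested.

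*Parp14* is a minus strand gene of chromosome 16, at positions 35832960 to 35871630. It is the gene knocked out in the *Parp14*−/− cells. At this gene the altered allele and the loss of PARP-14 cannot be told apart. *Hspbap1*, *Dtx3l* and *Parp9* lie near the altered gene, and any part of this in their values was not tested. Over the body of the gene, intervals covered 59.3%, 54.0%, 7.06% and 8.61% of its length. In both *Parp14*+/+ libraries 11 of its 17 exons touched an interval, and in both *Parp14*−/− libraries 1 did, the first. Among 5701 genes of at least 10 kb, 20 (0.351%) had 50% or more of their length covered in both *Parp14*+/+ libraries and under 10% in both *Parp14*−/− libraries, limits chosen after the values of *Parp14* were seen. A looser form of the pattern, with the share in both *Parp14*−/− libraries at most 1 in 5 of that in both *Parp14*+/+ libraries, was met by *Parp14* and by 484 of the 5701 genes (8.49%). Coverage was greater in both *Parp14*+/+ libraries than in both *Parp14*−/− libraries at *Parp14* and *Parp3* among the 7 members, and at 23.9% of the 8551 genes. Over the 8551 genes the mean share covered was also greater with PARP-14, at 35.7%, 30.6%, 27.1% and 25.6%, and the median was 16.9%, 11%, 5.67% and 4.18%. The long coverage of *Parp14* was made of low intervals. With intervals above the median summit height alone, the covered length was 0 bp, 7980 bp, 2730 bp and 3330 bp, so the untreated pair then had its order turned round. That of *Parp3* was then 1080 bp, 0 bp, 630 bp and 780 bp, so the pattern was lost there as well.

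The height of *Parp14* changed along the gene. Over the active region at its start, from 35854951 to 35872800, the summits were 9, 11, 13 and 13, with both *Parp14*+/+ libraries the lower. In its other 2 active regions, which run towards the 3′ end, the summed heights were 15, 22, 7 and 7. The split was made after the values were seen. Part of these sums lay outside the gene, because the 3′ region reaches past its end. The highest summits of that region, 8 in *Parp14*+/+ and 12 in *Parp14*+/+ + PJ34, were beyond the end of *Parp14*, and the highest within the gene there were 7 and 9, while the *Parp14*−/− libraries had no interval in it. The 3′ region is also counted for *Hspbap1*, a convergent neighbour with heights of 6, 8, 2 and 3.5, and intervals over that gene covered 4950, 5698, 0 and 0 bp. The low values without PARP-14 thus ran on past the 3′ end of *Parp14* into a gene on the other strand. The next neighbour, *Dirc2*, had heights of 3.5, 5, 1.5 and 2.5 and no interval over it.

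**Figure D1:**
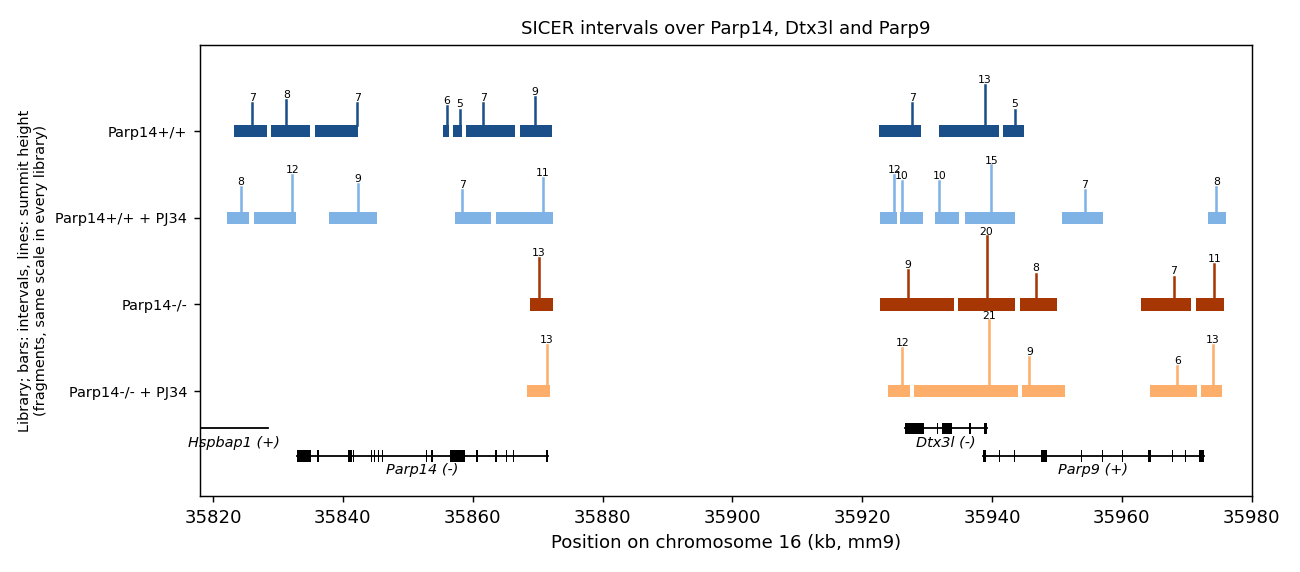
Intervals on chromosome 16 (position in kb, mm9) in each of the 4 libraries, 1 per condition, as bars, with the summit of each interval as a line whose length and number give the height in overlapping fragments, above the exons of 4 genes with their strands. Over *Parp14* the *Parp14*−/− libraries have 1 interval each, at the start of the gene, while at the shared start of *Dtx3l* and *Parp9* the summits are 13, 15, 20 and 21 in the order of the libraries from top to bottom.

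By covered length the genes most like *Parp14*, out of those of at least 10 kb, were *Nsf*, *Iqgap1*, *Tbce*, a line labelled AA407452 and *Zcrb1*. *Nsf*, which encodes a membrane fusion ATPase, differed from *Parp14* by 9.74 percentage points summed over the 4 libraries. It was covered over 59.0%, 57.1%, 2.38% and 6.69% of its length. *Iqgap1*, a scaffold of the cytoskeleton, differed by 10.7 points. The coverage pattern of *Parp14* was therefore found at other genes on other chromosomes as well.

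*Dtx3l* and *Parp9* lie head to head about the same start, on the minus strand from 35926597 to 35939237 and on the plus strand from 35938556 to 35972691 of chromosome 16. PARP-9 is a macrodomain protein and acts with the ligase DTX3L in the response to interferon. *Dtx3l* had heights of 13, 15, 20 and 21, from 1 active region that *Parp9* shares. Both *Parp14*−/− libraries were above both *Parp14*+/+ libraries. *Parp9* had heights of 11, 11.5, 15.5 and 17, again with no overlap between the genotypes. Because of the shared region these are not separate measurements. The second region of *Parp9*, at its 3′ end from 35962951 to 35976150, belongs to it alone and had heights of 9, 8, 11 and 13. No interval there touched the gene in either *Parp14*+/+ library, and the summits of 11 and 13 lay beyond its end, with 7 and 6 as the highest within it. Intervals covered 17.0%, 33.2%, 57.8% and 58.3% of *Parp9*, and 2, 5, 8 and 8 of its 11 exons touched one. For *Dtx3l* the share was 77.5%, 78.6%, 95.3% and 95.3%. With intervals above the median summit height alone, the covered length of *Dtx3l* was 7337 bp, 9941 bp, 4487 bp and 12041 bp, so *Parp14*−/− was then the lowest. That of *Parp9* was then 2495 bp, 5045 bp, 6386 bp and 5936 bp, against 5795 bp, 11345 bp, 19736 bp and 19886 bp with all intervals. Greater coverage in both *Parp14*−/− libraries than in both *Parp14*+/+ libraries was found at 5.03% of the 8551 genes.

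*Tiparp*, on the plus strand of chromosome 3 from 65332332 to 65359067, encodes a mono-ADP-ribosyltransferase that is induced through the aryl hydrocarbon receptor and restrains it. Its heights were 11, 14, 15 and 19, so both *Parp14*−/− libraries were above both *Parp14*+/+ libraries here too. This held for 3 of 7 members, *Tiparp*, *Dtx3l* and *Parp9*, and for 10.7% of the 8551 genes. The order of the 4 libraries from lowest to highest was the same at *Tiparp*, *Dtx3l* and *Parp9*, an order noticed after the values were seen, and 172 of 8551 genes (2.01%) had it. With the libraries scaled to a median ratio of 1 3 members and 437 genes (5.11%) had it. *Dtx3l* and *Parp9* share a region, so the 3 members in these counts are not separate measurements. Coverage of *Tiparp* went another way: 97.8%, 45.0%, 92.1% and 93.3%. All 6 exons touched an interval in 3 libraries, and 4 did in *Parp14*+/+ + PJ34. In every library an interval ran on past the 3′ end of the gene, to 65368650, 65367450, 65367150 and 65366550.

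**Figure D2:**
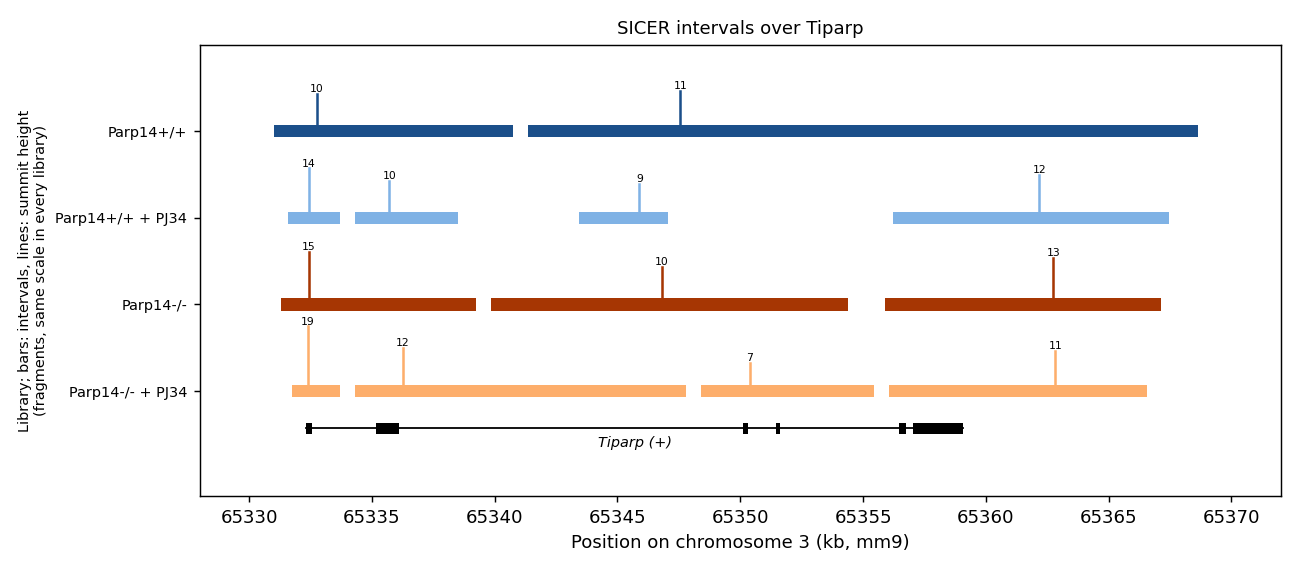
Intervals over *Tiparp* on chromosome 3 (position in kb, mm9) in each of the 4 libraries, 1 per condition, as bars, with summit heights in overlapping fragments as lines, above the exons of the gene. The *Parp14*+/+ + PJ34 library has the shortest coverage, 12036 bp of the gene, against 24636 bp or more in the other libraries, while the summit near the start was 10, 14, 15 and 19 from top to bottom.

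*Parp3* encodes an enzyme that joins single ADP-ribose units at DNA breaks and is a minus strand gene of chromosome 9, at positions 106372653 to 106379280. It had heights of 8.5, 6.5, 13 and 8, with *Parp14*−/− above the others. Its active region also holds *Rrp9*, a ribosomal RNA processing gene, and the summits of the interval at its start were 9393, 2556, 433 and 401 bp upstream of *Parp3*. The highest summits of the region were 13, 8, 23 and 14. Since the region is shared and the summits lie outside the gene, these heights cannot be given to *Parp3* alone.

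*Parp1*, the main sensor of DNA breaks in the family, had heights of 5, 5.8, 3.8 and 4.2 over 5 active regions. An interval of 1200 bp, in an intron, was present in *Parp14*+/+ + PJ34 alone. *Parp8*, a mono-ADP-ribosyltransferase, had heights of 6, 6, 4 and 5 and an interval of 1050 bp in *Parp14*+/+ alone. At both genes, as at *Parp14*, both *Parp14*+/+ heights were above both *Parp14*−/− heights, 3 of 7 members in all, against 26.5% of genes. *Parp1* and *Parp8* each had an interval in a *Parp14*+/+ library alone, and labels seldom fitted lines that lacked such an interval. The rule for members thus favoured this direction for them. The comparison set also holds lines with intervals in *Parp14*−/− libraries alone, so the share is not a like comparison. *Parp1* and *Parp8* were near the lower limit of what was detected. The line at the *Parp2* gene had heights of 4.33, 5.33, 6.33 and 5.33 and no interval. The line at *Parp10*, a mono-ADP-ribosyltransferase, had heights of 6, 11, 9 and 8. It was called lower in *Parp14*+/+ than in *Parp14*−/−, at 0.667 (0.195 to 2.10), and lower than in *Parp14*+/+ + PJ34, at 0.545 (0.166 to 1.61), and is not among the 7 members because its label is an older name. Its single region also overlaps *Plec*, and its intervals covered 47.3%, 50.9%, 31.4% and 36.2% of *Parp10*. They touched 2 of its 11 exons in each library and never the first. The summits were at 76062959, 76062817, 76062849 and 76063825, and only the last lay within the line, which runs from 76063090 to 76073873. These heights and calls therefore cannot be given to *Parp10* alone. No interval of the 4 libraries touched *Parp12*, which is induced by interferon, and occupancy there was not detectable at this depth.

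**Figure D3:**
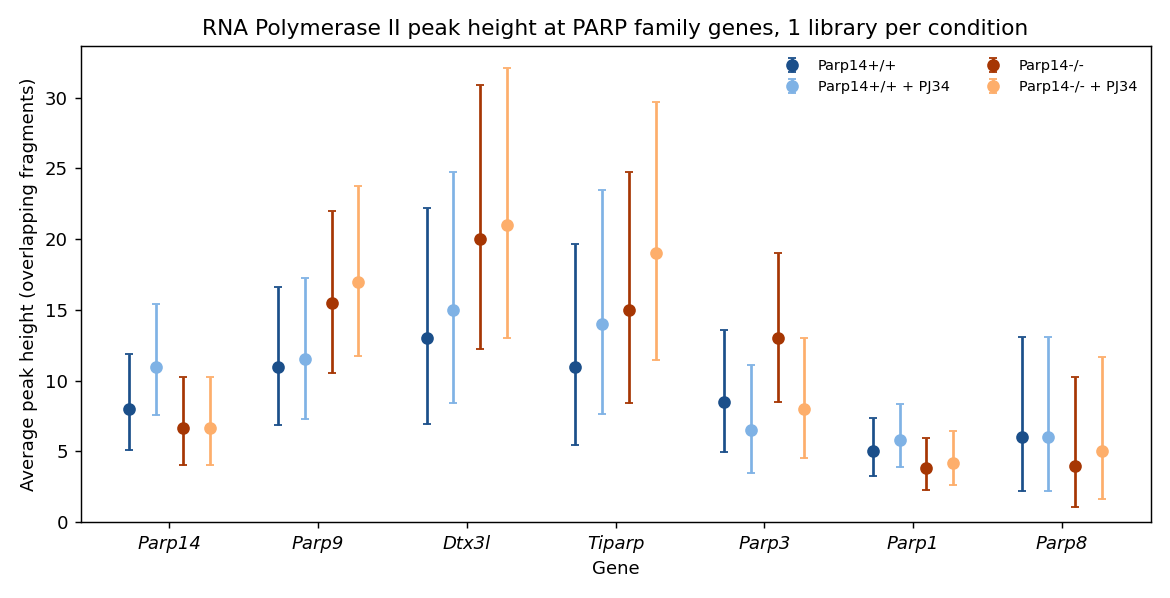
Average peak height in overlapping fragments (vertical axis, from 0) of the 7 PARP family genes with a line of their own, as a point for each of the 4 libraries. Bars are 95% exact Poisson intervals of the summed height taken as a count, and cover counting error only. *Dtx3l*, *Parp9* and *Tiparp* have higher points in both *Parp14*−/− libraries, *Parp14*, *Parp1* and *Parp8* have higher points in both *Parp14*+/+ libraries, and the bars of each gene overlap.

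To compare the genotypes without PJ34, untreated *Parp14*+/+ was set over *Parp14*−/−. Of 7 members, 1 was called higher, against 11% of the 8551 genes, and 2 were called lower, against 8.99%. With the line at *Parp10*, 1 of 8 was called higher and 3 lower. The higher one was *Parp8*, at 1.5 (0.356 to 7.23), a member through its *Parp14*+/+ interval alone. *Dtx3l* was called lower at 0.650 (0.297 to 1.37), and *Parp3* at 0.654 (0.333 to 1.25). *Parp14* itself, the gene altered in *Parp14*−/−, was not called, at 1.2 (0.635 to 2.29). With the highest summit within the gene in place of the average height its ratio was 0.692, on the other side of 1 and below the lower limit. Every one of the 7 intervals includes 1. No member was called with limits of 2 and 0.5. With the highest summit within the extent of its line, the ratio of *Dtx3l* was 1.44, on the other side of 1. That extent ends 56 bp short of the *Parp14*−/− summit of 20, and with the annotated gene as the extent, an alternative added after the values were seen, the ratio was 0.650.

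With PJ34 present the same genotypes gave 1 member called higher, against 19.8% of genes, and 1 called lower, against 4.58%, or 2 in either direction, against 24.3%. *Parp14* was the higher one, at 1.65 (0.919 to 3.03), and *Parp9* the lower one, at 0.676 (0.380 to 1.18). *Tiparp*, at 0.737 (0.342 to 1.55), and *Dtx3l*, at 0.714 (0.343 to 1.45), lay just inside the lower limit. For scaling to a median ratio of 1, each library was divided by the median, over genes, of its ratio to *Parp14*+/+. For *Parp14*−/− + PJ34 that median was -0.14 on the log2 scale. After this step 1 member was called higher, against 11.1% of genes so scaled, and 3 lower, against 9.57%. With the highest summit within the gene the ratio of *Parp14* was 0.846, on the other side of 1. That of *Parp9* was then 0.714, on the same side as before but no longer called.

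The genotype pairs share no library. All 7 members lay on the same side of 1 in both, and did so after scaling, while 4266 of 7241 genes off 1 in both pairs (58.9%) lay on the same side. Of the members 3 were above 1 in both, against 40.9% of those genes, and 4 below, against 18%. *Parp9* and *Dtx3l* count as 2 of the 4 below, through 1 shared region. Among the 3 above, *Parp1* and *Parp8* were members through a *Parp14*+/+ interval alone, so the rule for members favoured that side for them. With the line at *Parp10*, at 0.667 and 1.38, 7 of 8 lay on the same side. Of the members 0 were called in both pairs in the same direction, against 3.84% of genes.

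To ask what PJ34 did, *Parp14*+/+ was set over *Parp14*+/+ + PJ34, and 0 of 7 members were called higher, against 6.23% of genes, and 0 lower, against 9.23% (15.5% in either direction). With the line at *Parp10*, 1 of 8 was called lower, that line. *Parp14* was at 0.727 and *Tiparp* at 0.786, while *Parp3* was at 1.31. In cells without PARP-14, 1 member was called higher without PJ34, against 11.4% of genes, and 0 were called lower, against 4.01%. That member was *Parp3*, at 1.62, with the shared region named above, and no member was called with limits of 2 and 0.5. The PJ34 pairs share no library either. Of the members, 5 were off 1 in both PJ34 pairs, and of these *Parp1*, *Parp9*, *Dtx3l* and *Tiparp* were higher with PJ34 in both genotypes, as were 1482 of 7025 genes off 1 in both (21.1%). *Parp9* and *Dtx3l* share a region and are not separate measurements here either. With the highest summit within the gene *Dtx3l* was at 1.3 in *Parp14*+/+ over *Parp14*+/+ + PJ34, on the other side of 1. With *Parp3*, lower with PJ34 in both, 5 of 5 lay on the same side, or 5 of 6 with the line at *Parp10*, against 48% of those genes. After scaling to a median ratio of 1, 5 of 7 members were higher with PJ34 in both genotypes, against 26.0% of the 8551 genes. *Parp9* was among them at 0.998 in *Parp14*+/+ over *Parp14*+/+ + PJ34. *Parp8*, at 1.04 in *Parp14*+/+ and 0.727 in *Parp14*−/− so scaled, then lay on opposite sides. In *Parp14*+/+ alone 5 members were higher with PJ34, against 52.7% of genes, and in *Parp14*−/− alone 5 were, against 32.6%.

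Other genes of the family and its substrate were read by the same limits, but under a wider rule for lines than that of the members, since a line of another label at the place of the gene was accepted for them too. Over the 8551 genes the shares called higher and lower were 11% and 8.99% for *Parp14*+/+ over *Parp14*−/−, 19.8% and 4.58% for that pair with PJ34, 6.23% and 9.23% for PJ34 in *Parp14*+/+ and 11.4% and 4.01% for PJ34 in *Parp14*−/−. Of 7 further PARP genes 6 had a line and 5 an interval, and 0 were called in any of the 4 comparisons. *Tnks*, which encodes tankyrase, had heights of 12.4, 13.2, 14.2 and 18.4. *Zc3hav1*, an antiviral member without catalytic activity, had heights of 14, 17, 17 and 13. Of 16 genes that remove or read ADP-ribose, 10 had a line and 7 an interval, with 1 called higher in each genotype pair and 1 called lower in *Parp14*−/− over *Parp14*−/− + PJ34. All 7 lines had the label or the gene ID of the gene. With the libraries scaled to a median ratio of 1, these 12 PARP and ADP-ribose genes had 0 called higher, against 11.1% of genes so scaled, and 2 lower, against 9.57%, in the genotype pair with PJ34. Of 10 genes of NAD synthesis and use, 7 had a line and 6 an interval. Among them 1 was called lower in the untreated genotype pair, *Nampt*, which makes the precursor of NAD and had heights of 13, 18, 20 and 13 on a line under its older name, Pbef1. In the pair with PJ34, 2 were called higher. For PJ34 itself, 1 was called lower in *Parp14*+/+ over *Parp14*+/+ + PJ34, and 2 higher and 1 lower in *Parp14*−/− over *Parp14*−/− + PJ34. The 5 of these 6 genes whose line had their label or gene ID had the same counts, other than 1 called higher in *Parp14*−/− over *Parp14*−/− + PJ34.

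Of 15 interferon-induced genes 11 had a line and 9 an interval. In the untreated genotype pair 6 of the 9 were called lower, against 8.99% of genes, and 0 higher, against 11%, and with PJ34 1 was called lower, against 4.58%, and 1 higher, against 19.8%. In *Parp14*+/+ over *Parp14*+/+ + PJ34 2 were called lower, and in *Parp14*−/− over *Parp14*−/− + PJ34 1 was called higher. *Isg15*, a ubiquitin-like protein gene, was the one called in both pairs, with heights of 5, 7, 15 and 12 on a line labelled Hist2h4. That label belongs to another gene. Of the 6 genes whose line had their label or gene ID, 4 were called lower and 0 higher in the untreated genotype pair, 0 lower and 1 higher in that with PJ34, 2 lower for PJ34 in *Parp14*+/+ and 1 higher without PJ34 in *Parp14*−/−. Of 6 genes around the aryl hydrocarbon receptor 4 had a line and 3 an interval, and 0 were called in either genotype pair, 0 for PJ34 in *Parp14*+/+ and 1, higher without PJ34, in *Parp14*−/−. *Ahr*, the receptor that induces *Tiparp*, had heights of 5.4, 6.4, 6 and 7.

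Promoter windows of 300 bases from RefSeq (GRCm38.p6) were found for 7 of the 10 members, *Parp1*, *Parp2*, *Parp3*, *Parp8*, *Parp12*, *Dtx3l* and *Tiparp*, and each matched NCBIM37, the assembly of mm9, at 1 place. Motifs were searched on both strands. GCGTG, the core bound by the aryl hydrocarbon receptor, was in 7 of 7 windows, against 32.4% of 32851 promoters. These windows are rich in G and C, from 54.3% to 73.7%. Of the 14937 promoters at or above the lowest of these levels 52.3% held the motif. The share at the higher levels was not computed, so this is not a matched comparison. GAAA, any 2 bases and GAAA again, the core of the interferon-stimulated response element, was in 0 of the 7 and in 3.44% of all promoters, and TTCNNNGAA, the core of STAT sites, was in 0 and in 8.30%. The form with 4 bases between TTC and GAA, which STAT6 prefers, was searched later and was in 1 of the 7, that of *Dtx3l*, and in 6.95% of all promoters. The 250 bases upstream of the 2 members called in the untreated genotype pair whose upstream sequence holds no annotated exon are shown, 5′ to 3′ on the strand of the gene, with GCGTG or its reverse complement in capitals. That of *Parp3* is chr9:106379281-106379530, minus strand, and that of *Parp8* is chr13:117814339-117814588, minus strand.
Parp3: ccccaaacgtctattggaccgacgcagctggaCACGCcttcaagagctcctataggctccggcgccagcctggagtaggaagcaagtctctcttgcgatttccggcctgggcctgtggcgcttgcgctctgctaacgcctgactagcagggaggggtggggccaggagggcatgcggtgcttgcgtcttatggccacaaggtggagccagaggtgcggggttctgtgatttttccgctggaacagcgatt
Parp8: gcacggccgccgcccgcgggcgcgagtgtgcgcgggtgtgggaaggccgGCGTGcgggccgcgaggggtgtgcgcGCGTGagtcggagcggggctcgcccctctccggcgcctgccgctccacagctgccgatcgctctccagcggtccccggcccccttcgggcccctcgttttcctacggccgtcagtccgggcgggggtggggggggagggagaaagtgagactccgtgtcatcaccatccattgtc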

How the data were processed

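The authors aligned reads to mm9 by ELAND. After removal of duplicates they sampled all libraries down to an equal number of alignments and called intervals with SICER against Input. They deposited the intervals and, for each gene and library, a signal, the average peak height over active regions. Gene-level Input values were not used, and 8 columns of other libraries in the table were not used either. Coordinates were matched to GENCODE genes on NCBIM37. A line was assigned to a gene by its own label at the locus, or by a reciprocal overlap of 0.5, but members were counted only under their own label. Gene IDs were compared with RefSeq later, after values were seen. Overlap alone was used at first, and the label step was added after values were seen, because it brought in 5 listed genes, *Tnks2*, *Sirt1*, *Cd28*, *Lck* and *Il4*. It added no member. Of labels on lines with a *Parp14*+/+ interval 99.9% overlapped their gene, and of the other labels 10.6% did. Members, lists and ratio limits were chosen with earlier results of these data known. All members were named, and of the other lists the genes called in both genotype pairs. *Gata3*, *Il4*, *Il5*, *Il13*, *Tnks*, *Zc3hav1*, *Nampt* and *Ahr* were picked as examples after values were seen. Ratios and covered lengths were computed with Python 3.11.15, numpy 2.4.6, pandas 2.3.3 and scipy 1.17.1, drawn with matplotlib 3.10.9, and checked on simulated data. The simulated heights were drawn as counts, so the check could not show whether real heights behave as counts. The result of 1 listed marker is not reported here.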

Additional observations from a re-analysis of the deposited data

Results flagged for a closer look

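Some values moved in opposite directions in the groups compared, and none of these differences was tested. With PJ34 the covered length of *Parp14* changed by -2041 bp in *Parp14*+/+ and by 600 bp in *Parp14*−/−. With intervals above the median summit height alone, *Parp14* went from 0 bp to 7980 bp in *Parp14*+/+ and from 2730 bp to 3330 bp in *Parp14*−/−, so the opposition was lost. The covered length of *Tiparp* changed with PJ34 by -14100 bp in *Parp14*+/+ and by 300 bp in *Parp14*−/−, and *Parp14*+/+ minus *Parp14*−/− came to 1500 bp without PJ34 and -12900 bp with it. The opposition in the PJ34 changes of *Tiparp* was lost under 2 of 3 alternatives, since in *Parp14*−/− its covered length went from 24636 bp to 17886 bp with intervals above the median summit height and from 26636 bp to 26517 bp with 1 kb on either side. The line at *Parp10* changed in height with PJ34 by 5 in *Parp14*+/+ and by -1 in *Parp14*−/−, so that *Parp14*+/+ minus *Parp14*−/− was -3 without PJ34 and 3 with it. The line at *Parp2*, which had no interval, changed with PJ34 by 1 in *Parp14*+/+ and by -1 in *Parp14*−/−.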

How the results depend on the processing

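Counts of called members and of the 12 PARP and ADP-ribose list genes with an interval are given for *Parp14*+/+ over *Parp14*−/−, the same pair with PJ34, PJ34 in *Parp14*+/+ and PJ34 in *Parp14*−/−, where the main counts were 3, 2, 0 and 1 members and 1, 1, 0 and 1 list genes. With limits of 2 and 0.5 all 4 counts were 0 for members and for list genes, against 2.46%, 3.47%, 1.93% and 1.5% of all genes. A summed height of at least 50 was reached by no member, the highest being 34, so that the 4 counts of 0 members say nothing, and by 2 list genes, of which 0 were called. With the band from 1.2 to 1.4 and 0.7 to 0.83 at heights above 11, the members called were 5, 4, 1 and 2, against 33%, 36.4%, 28.6% and 26.8% of all genes. Scaling to a median ratio of 1 gave 3, 4, 0 and 1 members, against 20%, 20.7%, 16.4% and 13.5% of all genes, and 1, 2, 0 and 1 list genes. The list genes of the pair with PJ34 then went from 1 higher and 0 lower to 0 higher and 2 lower. Requiring no interval left the member counts at 3, 2, 0 and 1, against 23.8%, 28.5%, 18.2% and 21.4% of all genes. With the highest own summit in the gene body, available for 4, 3, 4 and 3 members, 3, 0, 0 and 0 were called. The 3 were not the 3 of the main count, *Parp8*, *Dtx3l* and *Parp3*, but *Dtx3l*, now higher at 1.44, and *Parp14* and *Parp9*, lower at 0.692 and 0.650, while *Parp8* and *Parp3* had no own summit in both libraries. With PJ34 *Parp9* lost its call, at 0.714 against 0.676, and *Parp14* changed sides as well, to 0.846. For *Dtx3l* this came from the extent of the table's line, which ends 56 bp short of the *Parp14*−/− summit of 20, and within the annotated gene the ratio was 0.650. For *Parp14* the highest summits are those at its start, while the average takes in 2 further regions. Alternatives added after seeing the data were own summits within the annotated gene, with 3, 0, 0 and 0 members called, all 3 lower, and *Parp14* with PJ34 again at 0.846, the lines at *Parp2* and *Parp10* as members, with 4, 2, 1 and 1 called, lines with the label or gene ID of the gene, which take in *Parp10* alone, again with 4, 2, 1 and 1, and leave the list counts at 1, 1, 0 and 1, list lines of the gene's own label alone, with 1, 0, 0 and 1 called, own summits and scaling for patterns across libraries, and matching by overlap alone, which left the list counts at 1, 1, 0 and 1. With own summits 3 of 3 members lay on the same side of 1 in both genotype pairs and 2 of 3 were higher with PJ34 in both genotypes. The order of the 4 libraries seen at *Tiparp*, *Dtx3l* and *Parp9* was then found at 2 of 3. *Dtx3l* was not among these 3, as it had no own summit in *Parp14*−/− + PJ34. No share of all genes is given beside the counts with own summits. Of covered lengths, 13 of 26 moved by over 1.5 times with intervals above the median summit height, 3 with 1 kb on either side and 0 with intervals of at least 1 kb. No paired test was run, and each condition had 1 library. Low heights limit what could be detected: the highest average height of the 7 members was 21 fragments.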
